A study of Equus caballus with 2 samples.

Results

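The cells described here were equine endometrial fibroblasts that carried the transcripts of the G2 and M phases of the cell cycle, called G2/M cells below. They were selected on their measured expression of 12 genes, *TOP2A*, *CDK1*, *CCNB2*, *BIRC5*, *CENPF*, *NUSAP1*, *TPX2*, *CDC20*, *ASPM*, *BUB1B*, *CCNA2* and *KIF20A*. A cell was a G2/M cell when the unique molecular identifiers (UMIs) of these genes reached 200 per 1000000 of its UMIs (the score) and at least 6 of the genes had a UMI. Of 8378 cells that passed the quality limits, 186 were chosen, 89 of 3865 in the control library and 97 of 4513 in the TGF-β1 library.

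Fibroblasts of 4 mares with healthy or mildly fibrotic endometria were pooled in each library, so each condition was 1 library. The study split the pools by animal, but that assignment was not used here. After culture on collagen-coated hydrogels with 10% and then 4% fetal bovine serum, both groups were kept for 24 h in medium with 0.1% BSA in place of serum. The control received nothing further and the other group received 10 ng/ml human recombinant TGF-β1. Cells treated with MFGE8 were not analysed here, and condition and library cannot be told apart, so values are given with 95% intervals that cover counting error only and with no test.

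Before division a cell copies its DNA in S phase and then builds up the proteins of mitosis in G2. Cyclins A and B with their kinase CDK1 start mitosis, motor proteins and microtubule binding proteins form the spindle, and kinetochore and checkpoint proteins hold the chromosomes until the anaphase-promoting complex releases them. Fibroblasts are the main matrix-producing cells of the endometrial stroma, and TGF-β1 is known to drive matrix production and contractile proteins in them.

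The 2 parts of the rule did unequal work. The score of 200 alone was passed by 780 (20.2%) of the kept control cells and 2037 (45.1%) of the kept TGF-β1 cells, whereas at least 6 of the genes had a UMI in 91 and 98 cells. *NUSAP1*, a microtubule binding protein of the spindle, made up 88.9% of the summed score of the other cells in the control and 93.6% with TGF-β1, and 19.9% and 27.9% of that of the G2/M cells. At 20000 UMIs a cell it was detected in 90.9% and 96.7% of the other cells. Whether these UMIs came from the cells themselves was not tested, so the level of *NUSAP1* and the score of the other cells cannot be read as expression of the cell cycle. Without *NUSAP1*, a choice made after the data were seen, 78 control and 76 TGF-β1 cells passed the rule, each of them among the G2/M cells.

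The lowest score of a G2/M cell was 245 in the control and 236 with TGF-β1. Outside the limit, 2 control cells and 1 TGF-β1 cell had at least 6 of the genes, with scores of up to 164 and 183. A further 19 and 15 cells reached the score with 5 genes. The number of genes therefore decided who belonged, and cells lay on both sides close to it, with 9 control and 17 TGF-β1 G2/M cells at exactly 6 genes.

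**Figure D1:**
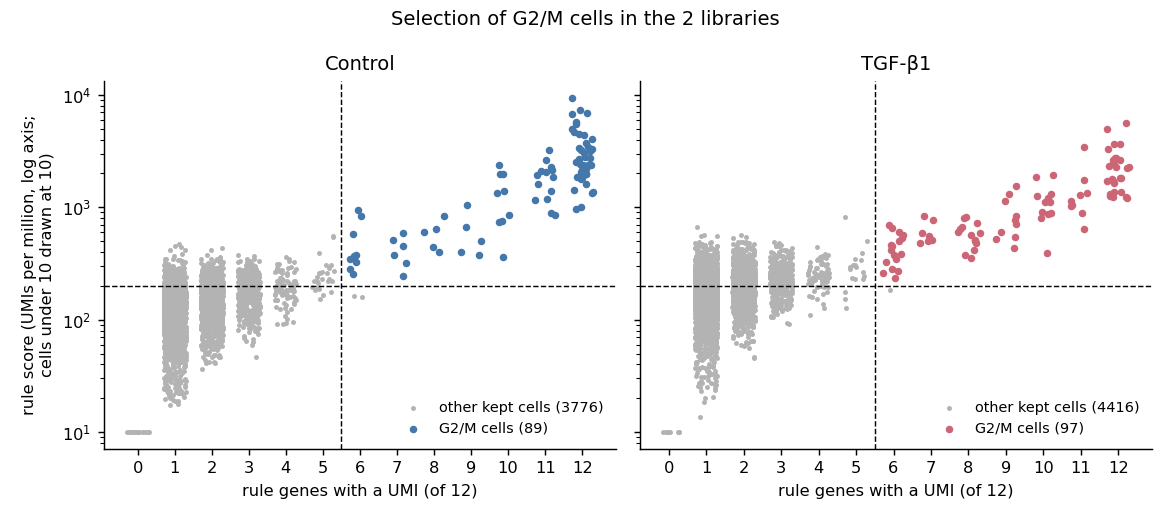
Rule score of each kept cell (UMIs of the 12 genes per 1000000 UMIs, log axis) against how many of the 12 genes had a UMI, with the limits of 200 and 6 genes as dashed lines. Most other cells have 1 or 2 of the genes while many lie above the score limit, and the control G2/M cells reach higher scores than those with TGF-β1.

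G2/M cells were 2.30% of the kept control cells (1.85 to 2.83%) and 2.15% of the kept TGF-β1 cells (1.75 to 2.62%), a ratio of 0.933 (0.693 to 1.26). When every cell was thinned to 20000 UMIs before the rule was applied, the shares were 1.76% (1.37 to 2.23%) and 1.40% (1.07 to 1.78%), a ratio of 0.793 (0.554 to 1.13). With at least 4 genes in the rule the order was the opposite, 3.78% in the control and 3.90% with TGF-β1. These intervals cover the counting of cells only, and a difference between the conditions was not tested, since each was 1 library.

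G2/M cells held more RNA molecules than the other cells. Their median was 75608 UMIs against 50058.5 in the control and 61000 against 42936 with TGF-β1, ratios of 1.51 and 1.42. The median number of genes was 7815 against 6517 and 7357 against 6219. The rule asks for detected genes and is easier to pass for a cell with more UMIs. For the 68 and 63 cells that passed it after thinning the ratios were 1.51 and 1.41. Of the G2/M cells, 10 control and 14 TGF-β1 cells lay above the 98th percentile of UMIs of all kept cells of their library, and pairs of cells in 1 droplet had not been removed. Without the cells above that percentile the ratios were 1.47 and 1.32, and the part of detection and of such pairs in the higher medians was not tested. The share of mitochondrial UMIs was similar, with medians of 1.28% in the control G2/M cells and 1.48% in the other cells, and 1.28% against 1.21% with TGF-β1.

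The cells were fibroblasts by their markers. *VIM*, *COL1A1*, *COL1A2* and *COL3A1* had UMIs in all 89 and all 97 G2/M cells. The summed level of 9 fibroblast markers was 19280 UMIs per 1000000 (CPM) in control G2/M cells against 21794 in the other control cells, and 20703 against 21831 with TGF-β1. The epithelial genes *EPCAM* and *CDH1*, the endothelial genes *PECAM1* and *CDH5* and the immune genes *PTPRC*, *CD3E*, *CD79A*, *CSF1R* and *LYZ* had 0 UMIs in the G2/M cells of both libraries. Of 6 epithelial markers 3 had a UMI in control G2/M cells, with 128 CPM in sum against 135 in the other cells, of which 112 came from *KRT8*, a keratin of simple epithelia. With TGF-β1 the epithelial sum was 8.80 CPM in G2/M cells and 12.4 in the other cells. The endothelial sums were 13.6 CPM against 12.8 in the control and 25.8 against 23.1 with TGF-β1, and the immune sums 42.6 against 43.0 and 42.2 against 43.4, most of them from *ERG* and *CD68*. Of the 5 markers of pericytes and smooth muscle, which this culture could also hold, the sums were 723 CPM against 748 and 621 against 659. The erythroid genes *HBB* and *ALAS2* summed to 1 UMI in control G2/M cells and 0 with TGF-β1.

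The genes of the rule were higher in G2/M cells by its construction, and their values are a description only. *CENPF*, a kinetochore protein of G2 and mitosis, was at 335 CPM in control G2/M cells against 0.280 in the other cells, a log2 ratio of 10.22, and at 192 against 0.287 with TGF-β1, a log2 ratio of 9.39. *CDC20*, which activates the anaphase-promoting complex, was at 138 against 0.201 CPM and at 49.8 against 0.183. *TOP2A*, which untangles DNA, was at 276 against 4.55 CPM and at 142 against 3.82. *CDK1* was at 86.8 against 4.15 and at 52.5 against 1.25. *NUSAP1* differed least, with 417 against 131 CPM and 350 against 186, log2 ratios of 1.67 and 0.91. Their median log2 ratio was 7.08 in the control and 6.20 with TGF-β1.

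The other cells had few of these transcripts apart from *NUSAP1*. At 20000 UMIs a cell, *CENPF* was detected in 73.0% of control G2/M cells (62.6 to 81.9%) and 0.371% of the other cells, and in 66.0% (55.7 to 75.3%) and 0.566% with TGF-β1. *BUB1B*, a kinase of the spindle checkpoint, was detected in 61.8% and 1.09% of control cells and in 52.6% and 0.815% with TGF-β1. *ASPM*, a protein of the spindle poles, was detected in 67.4% and 0.477% in the control and in 49.5% and 0.838% with TGF-β1. *TOP2A* was found more widely, in 68.5% and 7.57% in the control and in 66.0% and 6.54% with TGF-β1. The cells were chosen on these genes, so the lower shares in the other cells were set by the choice and are a description only.

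**Figure D2:**
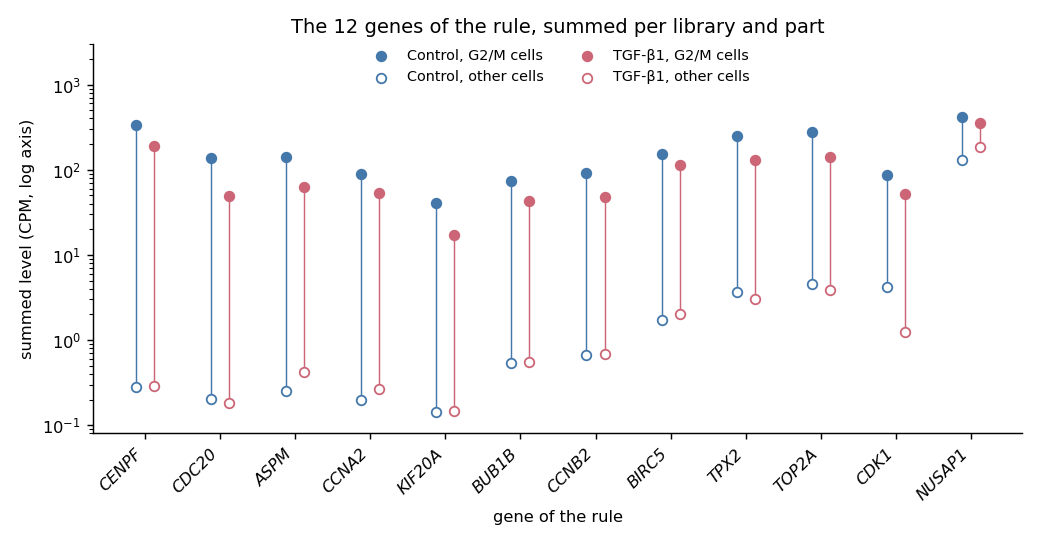
Summed level (CPM, log axis) of the 12 genes of the rule in G2/M cells (filled) and the other kept cells (open) of the control (blue) and TGF-β1 (red) library, 1 library each. The filled points of TGF-β1 lie below those of the control for all 12 genes, and *NUSAP1* has the smallest distance between filled and open points.

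G2/M cells with 10 or more of the 12 genes carried more of the mitotic transcripts that the rule did not use than those with fewer, while in the control the sums at 6 and at 7 to 9 genes were close. All 12 genes had a UMI in 41 (46.1%, 35.4 to 57.0%) of the control and 28 (28.9%, 20.1 to 39.0%) of the TGF-β1 G2/M cells. The 117 mitosis genes outside the rule summed to 4493 CPM in control cells with 6 of the genes, 4351 with 7 to 9, 7845 with 10 or 11 and 12379 with all 12. With TGF-β1 the sums were 3798, 4795, 6662 and 9635 CPM. *CCNB1*, cyclin B1, went from 12.4 CPM at 6 genes to 236 at 12 in the control and from 12.6 to 191 with TGF-β1. *PLK1*, a kinase of mitotic entry, had 0 UMIs at 6 genes in the control and was at 65.0 CPM at 12, and went from 0.967 to 61.4 CPM with TGF-β1. Cells with 5 of the genes, which were not G2/M cells, had sums of 2771 and 3326 CPM for the mitosis genes.

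Over the G2/M cells of a library the rule score and the summed mitosis genes went together, with Spearman's rho of 0.92 over 89 control cells and 0.91 over 97 TGF-β1 cells. The score and the 54 DNA replication genes had a rho of -0.00 and 0.19. These are descriptions over cells of 1 library, which share its depth and preparation.

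Most G2/M cells carried the genes of DNA replication as well, so the label G2/M does not cover all that they expressed. In the control 78 of 89 (87.6%) and with TGF-β1 76 of 97 (78.4%) were above the 95th percentile of the other cells of their library for both the mitosis and the replication genes. Only the mitosis genes were above it in 9 and 10 cells, only the replication genes in 0 and 2, and neither in 2 and 9. *CCNB1* and *PLK1* both had a UMI in 51 control and 43 TGF-β1 cells and neither had one in 11 and 19. In cells with 6 to 9 of the rule genes, the mitosis sum over the replication sum had a median of 1.69 in the control (range 1.01 to 8.64) and 3.50 with TGF-β1 (0.982 to 11.2). In cells with 10 or 11 it had a median of 4.40 (1.01 to 8.71) and 2.94 (1.22 to 7.94). In cells with all 12 it had a median of 4.53 (1.36 to 13.3) and 4.98 (1.75 to 10.4), so with TGF-β1 it did not rise at each step. The replication sum itself ranged from 390 to 7540 CPM in the control and from 463 to 6419 with TGF-β1.

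**Figure D3:**
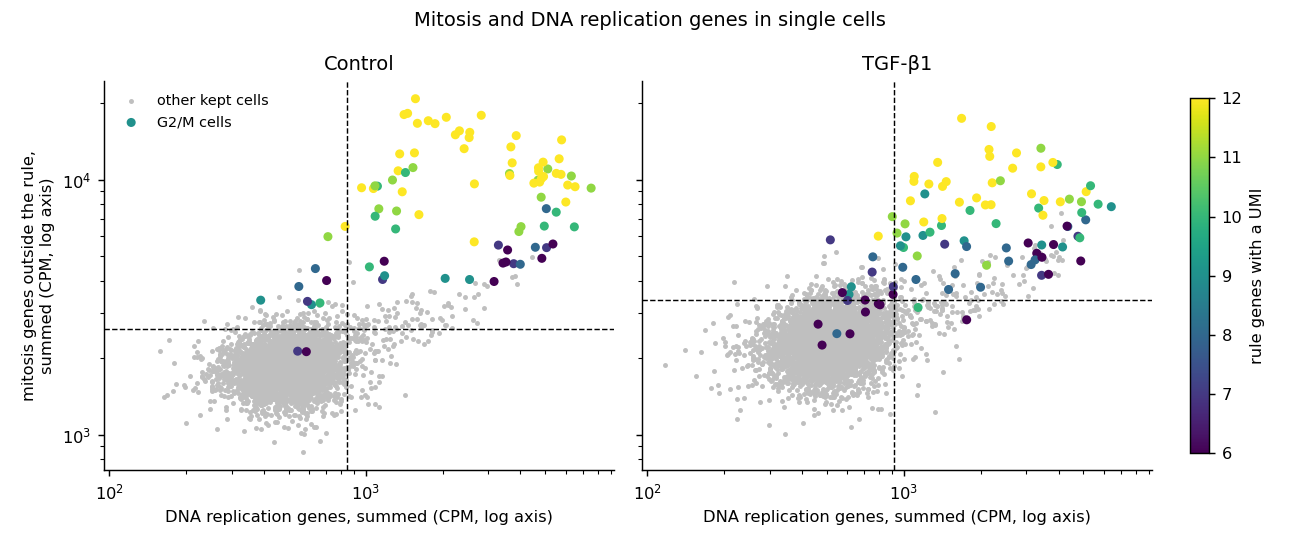
Summed CPM of the mitosis genes outside the rule against that of the DNA replication genes for each kept cell (both axes log), with G2/M cells coloured by how many rule genes had a UMI and dashed lines at the 95th percentile of the other cells. In both libraries most G2/M cells lie beyond both lines, and cells with all 12 genes lie highest on the mitosis axis over a wide range of the replication axis.

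Outside the rule, 379 genes were more than 2-fold higher and 35 more than 2-fold lower in control G2/M cells than in the other control cells, 4.76% and 0.439% of the 7964 genes that averaged 10 CPM or more over both sums. With TGF-β1 212 genes (2.72%) were more than 2-fold higher and 8 (0.102%) lower of 7807. The lists shared 204 higher genes, 53.8% of the control list and 96.2% of the TGF-β1 list. The lower genes in common were *ASPN* and *H2BC20*. A gene low in the other cells passes the minimum only through the G2/M sum and then has to be higher there, so the direction of these counts is partly set by the choice of cells. The median log2 ratio of all genes was 0.11 in the control and 0.07 with TGF-β1, and the medians of the lists below can be read against it.

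Of the 117 mitosis genes found outside the rule, 109 had at least 10 CPM in G2/M or other control cells, and 90 of these were more than 2-fold higher in G2/M cells. With TGF-β1 102 passed and 79 were more than 2-fold higher. The median log2 ratios were 4.02 and 3.11, and the summed levels 9149 CPM against 1946 and 6675 against 2428. In 40 and 39 of the genes the other cells alone had at least 10 CPM, and there the medians were 1.32 and 0.84, with 23 and 17 genes more than 2-fold higher.

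Among the genes of mitotic entry, 12 of 14 measured in the control and 9 of 11 with TGF-β1 were more than 2-fold higher, with medians of 4.32 and 4.06. In the sentences on lists that follow, the genes with at least 10 CPM in the other cells are also given, since those below it were measured only through the G2/M sum and had to be higher. Here they were 5 and 4 genes, with 4 and 2 past 2-fold. *FOXM1*, a transcription factor of G2 genes, was at 13.6 CPM in control G2/M cells against 0.0343 in the other cells and at 8.23 against 0.0329 with TGF-β1. *CCNB1* was at 144 against 1.61 CPM and at 87.6 against 1.27, log2 ratios of 6.49 (6.30 to 6.67) and 6.10 (5.89 to 6.31). *PLK1* was at 36.6 against 0.285 and at 25.8 against 0.334 CPM, log2 ratios of 7.01 (6.59 to 7.45) and 6.27 (5.87 to 6.69). *WEE1*, a kinase that holds CDK1 inactive, differed less, with 44.2 against 15.6 and 27.3 against 13.7 CPM. *G2E3* had the lowest ratio of the list in both libraries, 0.55 and 0.40.

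Spindle genes were more than 2-fold higher in 23 of 24 measured in the control and 22 of 24 with TGF-β1, with medians of 4.89 and 4.11. Of those with at least 10 CPM in the other cells 6 of 7 and 4 of 6 were, with medians of 1.98 and 1.27. The kinesin *KIF18B* had the highest log2 ratio of the list, 10.13 (8.55 to 12.43) in the control and 7.90 (6.89 to 9.08) with TGF-β1, from 16.5 against 0.0147 and 10.1 against 0.0423 CPM. *KIF11*, the kinesin that pushes the spindle poles apart, was at 94.3 against 2.53 and at 56.4 against 2.91 CPM. *KIF23*, *KIF2C*, *HMMR* and *DLGAP5*, all tied to spindle microtubules, had log2 ratios between 6.69 and 7.06 in the control and between 5.68 and 6.70 with TGF-β1. *NUMA1*, which anchors the spindle, was close to the other cells at 27.0 against 22.2 and 26.8 against 23.7 CPM.

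Of the kinetochore and checkpoint genes 27 of 28 and 23 of 26 were more than 2-fold higher, with medians of 4.62 and 3.38. Of those with at least 10 CPM in the other cells 5 of 6 and 4 of 6 were, with medians of 2.52 and 1.72. *NDC80*, the kinetochore protein that binds microtubules, was at 69.9 against 0.422 CPM in the control and at 38.2 against 0.564 with TGF-β1. *KNL1*, a scaffold of the kinetochore, had log2 ratios of 6.21 and 5.68, and *TRIP13*, an ATPase of the checkpoint, 5.90 and 5.69. *BUB3*, a checkpoint protein, was lowest of the list, with 0.94 and 0.49. The genes of the chromosomal passenger complex and of cytokinesis, the final split of the cell, were more than 2-fold higher in 12 of 12 in both libraries, with medians of 5.62 and 4.65. Of these genes 0 in the control and 1 with TGF-β1 had 10 CPM in the other cells, so the minimum set this count and it is no support for a direction. *AURKB*, the kinase of the complex, was at 36.1 against 0.388 and at 15.3 against 0.197 CPM. *RACGAP1* and *CEP55*, both of the cell bridge at the end of division, had log2 ratios of 6.86 and 6.47 in the control and 6.61 and 5.73 with TGF-β1. *CDCA3*, a trigger of mitotic entry, had 6.67 and 5.92.

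Condensin and cohesin genes, whose products fold and tie the chromosomes, were more than 2-fold higher in 13 of 18 and 10 of 17, with medians of 1.99 and 1.27, and in 7 of 12 and 5 of 12 with at least 10 CPM in the other cells, with medians of 1.20 and 0.69. *SGO1*, which guards cohesin at the centromere, was at 35.5 against 0.633 and 22.9 against 0.578 CPM, and *WAPL*, which releases cohesin, was at 61.3 against 45.4 and 52.1 against 44.9. The anaphase-promoting complex stood apart among the mitosis lists, with 3 of 13 and 3 of 12 genes more than 2-fold higher and medians of 0.47 and 0.26. Of 10 genes with at least 10 CPM in the other cells 1 was past 2-fold in each library. Its ubiquitin-conjugating enzyme *UBE2C* was at 241 against 12.6 CPM in the control and 164 against 15.4 with TGF-β1, while the subunit *CDC26* was at 34.9 against 36.8 and 41.0 against 43.8.

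DNA replication genes were more than 2-fold higher in 49 of 51 in the control and 41 of 45 with TGF-β1, with medians of 3.21 and 2.45. Of those with at least 10 CPM in the other cells 12 of 14 and 9 of 12 were, with medians of 2.09 and 1.33. In sum they were at 3207 CPM in control G2/M cells against 548 in the other cells, and at 2141 against 588 with TGF-β1. *CDC45*, of the replicative helicase, was at 34.0 against 0.172 CPM and 19.2 against 0.174. *RRM2*, which makes deoxynucleotides, was at 188 against 2.67 and 112 against 7.53, and *PCNA*, the sliding clamp, at 222 against 30.1 and 125 against 24.7. The lowest of the list was *RPA3* at 92.7 against 60.4 and 87.7 against 60.9. Genes of DNA repair by recombination had medians of 3.12 and 2.68, with *BRCA1* at 30.3 against 1.48 and 15.3 against 1.61 CPM. Over the 1 and 2 of them with 10 CPM in the other cells the values were 0.23 and 0.79. Centriole genes had medians of 2.37 and 1.66, and 1.57 and 0.87 over the 4 and 3 with 10 CPM in the other cells. Genes of the nuclear envelope and chromatin had medians of 1.64 and 1.12, and 1.61 and 0.99 over 14 such genes in each library, and the histone variant *H2AZ1* was at 1474 against 315 and 1390 against 440 CPM.

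Of the inhibitors of the cell cycle named below, *CDKN1A* and *CDKN1C* were lower in G2/M cells. Of 20 measured G1 cyclins and inhibitors in the control, 3 were more than 2-fold higher and 2 more than 2-fold lower, with a median of 0.17. Of 19 with TGF-β1 3 were higher and 0 lower, with a median of 0.07. Of all genes 4.76% and 2.72% were more than 2-fold higher, and 0.439% and 0.102% lower. Of those in the list with at least 10 CPM in the other cells 0 of 16 and 1 of 17 were higher. Their medians were 0.05 and 0.06. The 3 higher genes in the control were measured only through the G2/M sum and had to be higher. *CDKN1A*, the inhibitor p21, was at 28.8 CPM in control G2/M cells against 62.0 in the other cells, a log2 ratio of -1.11 (-1.32 to -0.90), and at 37.2 against 47.5 with TGF-β1, -0.35 (-0.54 to -0.18). *CDKN1C*, the inhibitor p57, was at 22.5 against 57.5 and 30.7 against 47.7 CPM, log2 ratios of -1.35 (-1.60 to -1.12) and -0.64 (-0.84 to -0.44). *CDKN3*, a phosphatase that acts on cyclin-dependent kinases, was at 93.4 against 3.14 and 48.6 against 3.15 CPM, measured only through the G2/M sum. *CCND1*, cyclin D1 of G1, was at 81.7 against 78.8 and 183 against 176 CPM, so its log2 ratio was 0.05 in both libraries.

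Genes with no symbol were 21 of the higher genes in the control and 14 with TGF-β1, and all 14 were in both lists. The annotated gene ENSECAG00000036105 was at 102 against 0.108 CPM in the control and 45.7 against 0.113 with TGF-β1, and ENSECAG00000026891 at 99.3 against 0.221 and 46.7 against 0.207. Of the 379 and 212 higher genes 148 in the control and 113 with TGF-β1 belonged to the cell cycle lists used here, and all 113 were shared. Of all higher genes with TGF-β1 96.2% were also in the control list, so sharing by these members is close to that of all. Many of the list genes were measured only through the G2/M sum and had to be higher. The share of these lists among all measured genes is not given here.

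**Figure D4:**
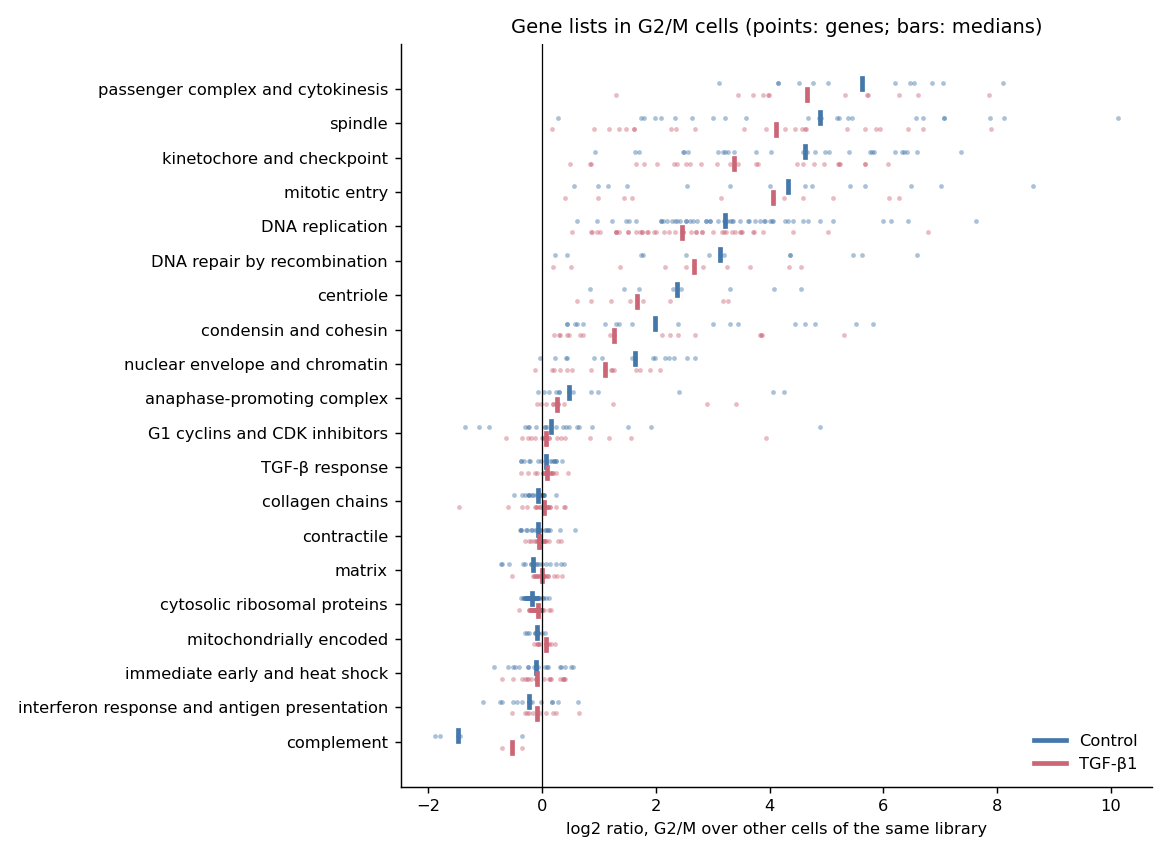
Log2 ratios of G2/M over other cells of the same library for the measured genes of each list outside the rule (points) and their medians (bars), in the control (blue) and with TGF-β1 (red). Medians of the lists of mitosis and replication lie right of 0 and are higher in the control. In both libraries many of their genes were measured only through the G2/M sum. The lists of matrix, contractile and ribosomal genes lie near 0, and the few measured complement genes lie left of it.

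Medians of the lists of fibroblast functions were near 0, but many single genes were lower in the control. Of 20 matrix genes 0 were more than 2-fold higher or lower in either library, with medians of -0.15 and 0.01. Few of all genes were past 2-fold lower, 0.439% and 0.102%. In the control 11 matrix genes had an interval below 0 and 5 above, and of 58 genes of cytosolic ribosomal proteins 53 and 2. Of all control genes 18.3% had an interval below 0 and 41.6% above. With TGF-β1 6 matrix genes had an interval below 0 and 6 above, and 49 and 3 ribosomal genes, with 15.6% of all genes below and 32.3% above. *FN1*, fibronectin, was at 1751 CPM in control G2/M cells against 1940 in the other cells and at 6043 against 6089 with TGF-β1. *DCN*, decorin, was lowest of the list at 1284 against 2125 and 1258 against 1813 CPM, log2 ratios of -0.73 and -0.53, and *TNC*, tenascin C, was higher at 170 against 131 and 462 against 386. Collagen chains had medians of -0.07 and 0.04, contractile genes of -0.06 and -0.05, cytosolic ribosomal proteins of -0.17 and -0.08, and mitochondrially encoded genes of -0.09 and 0.07. *ACTA2*, the smooth muscle actin of myofibroblasts, was at 3411 against 3615 and 4573 against 4750 CPM. The TGF-β response list had medians of 0.07 and 0.08, and the interferon list of -0.22 and -0.09.

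The lower genes were few, and more so with TGF-β1. *ASPN*, the matrix proteoglycan asporin, was at 12.4 CPM in control G2/M cells against 33.5 and at 59.6 against 124 with TGF-β1, log2 ratios of -1.43 (-1.76 to -1.12) and -1.06 (-1.20 to -0.92). With at least 4 genes in the rule the control value was -0.68. *HBA2*, annotated as an alpha globin chain, was at 21.6 against 66.2 and 22.4 against 41.9 CPM, in a culture where *HBB* was near 0. *ATF3*, a stress-induced transcription factor, was at 163 against 292 and 91.0 against 148, *CRYAB*, a small heat shock protein, at 40.6 against 78.8 and 29.0 against 50.4, and *RRAD*, a small GTPase of the Ras family, at 11.4 against 26.9 and 14.8 against 28.8. *TCEA3*, *H2AC19*, *RHBDL1*, *LCN2* and *TPGS1* had log2 ratios between -1.11 and -0.80 in the control and between -0.94 and -0.66 with TGF-β1, but *H2AC19* in the control turned from -0.80 to 0.07 when 4 genes were enough for the rule. The chemokine *MIP-2BETA* had -1.20 in the control and -0.78 with TGF-β1, and the latter turned to 0.20 when 4 genes were enough for the rule. Immediate early and heat shock genes as a list had medians of -0.11 and -0.09.

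Of 5 complement genes measured in the control, 4 were more than 2-fold lower in G2/M cells, with a median of -1.47 (-1.93 to -1.09 as the medians of the interval bounds), but with TGF-β1 only 2 passed the minimum and their median was -0.52. *CFD*, complement factor D, was at 65.1 CPM in control G2/M cells against 225 in the other cells, a log2 ratio of -1.79 (-1.93 to -1.65), and at 21.9 against 35.4 with TGF-β1, -0.70 (-0.93 to -0.46). In the TGF-β1 library the *CFD* value moved to -2.03 with the rule after thinning and to -1.09 without its highest cell, which held 24.0% of its UMIs. With at least 4 genes in the rule it moved the other way, to -0.41. *C1R*, *C1S* and *SERPING1* had log2 ratios of -1.44, -1.47 and -1.89 in the control on 63, 39 and 28 UMIs in G2/M cells. These 3 genes were under 10 CPM in the G2/M cells and were measured only through the other cells, so they had to be lower, and the count and median of the list are no support for a direction. *CLU*, clusterin, had -0.36 and -0.34.

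UMIs of genes that mark other subsets of the culture were also counted in G2/M cells. The libraries held no cell type known to lack these genes, so a background from free RNA was not measured, and the shares below are of cells with a UMI, not of cells that express the gene. At 20000 UMIs *KRT8* was detected in 33.7% (24.0 to 44.5%) of control G2/M cells against 25.2% of the other cells, and *CFD* in 27.0% (18.1 to 37.4%) against 45.4%. *VCAM1*, an adhesion molecule, was detected in 3.37% (0.701 to 9.54%) against 4.48%. It had 28 UMIs in 5 control G2/M cells and 0 in the 97 TGF-β1 cells, and 4 UMIs in the other TGF-β1 cells. With TGF-β1 *IGFBP3*, which binds insulin-like growth factors, was detected in 52.6% (42.2 to 62.8%) against 39.4%, and *AREG*, an epidermal growth factor receptor ligand, in 32.0% (22.9 to 42.2%) against 22.9%. Median UMIs before thinning differed between the parts as given above.

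The comparison of the libraries within G2/M cells asks how dividing fibroblasts stood under TGF-β1. Of the 8036 genes that averaged 10 CPM or more, 183 (2.28%) were more than 2-fold higher and 200 (2.49%) more than 2-fold lower with TGF-β1, with a median of -0.06 over all of them. In the other cells 177 (2.32%) were higher and 163 (2.13%) lower of 7641, with a median of 0.01. The sum of 89 and 97 cells, 6669464 and 7043299 UMIs, made the intervals in G2/M cells wider than in the other cells.

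The cells were selected on the 12 genes of the rule, so their levels within the selected cells depend on which cells passed in each library and are a description only. All 12 were at lower CPM in TGF-β1 than in control G2/M cells, with log2 ratios from -0.25 (*NUSAP1*) to -1.47 (*CDC20*, -1.65 to -1.29) and a median of -0.87. The median score of a G2/M cell was 1826 in the control and 879 with TGF-β1, with quartiles of 742 and 2659 and of 537 and 1641. *CDK1* was at 86.8 and 52.5 CPM in G2/M cells, -0.72, and at 4.15 and 1.25 in the other cells, -1.73. *CENPF* was at 335 and 192 CPM, *TOP2A* at 276 and 142, *ASPM* at 142 and 63.0, *BUB1B* at 73.0 and 43.2, and *KIF20A*, a kinesin of cytokinesis, at 40.5 and 17.0.

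The mitosis genes outside the rule go with its score over cells, so the same limit holds for them. Of 109 measured, 100 were below 0, 92 had an interval below 0 (28.9% of all 8036 genes did, and 19.6% had one above 0), 12 were more than 2-fold lower (2.49% of all genes) and 0 more than 2-fold higher, with a median log2 ratio of -0.64 against -0.06 over all genes. *CCNB1* was at 144 and 87.6 CPM, -0.72 (-0.87 to -0.57), *AURKB* at 36.1 and 15.3, -1.24 (-1.58 to -0.90), and *NEK2*, a kinase of the centrosome, at 30.1 and 11.2, -1.43 (-1.82 to -1.04). *PLK1* was at 36.6 and 25.8, -0.50 (-0.79 to -0.22). Medians were -0.82 for the passenger complex and cytokinesis, -0.72 for spindle, -0.66 for kinetochore and checkpoint, -0.48 for mitotic entry, -0.45 for condensin and cohesin and -0.15 for the anaphase-promoting complex.

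The G2/M cells of the libraries also differed in their scores. When the UMIs of both libraries were weighted to the same shares of cells in 4 bins of the rule score, the median of the mitosis genes was -0.24, *PLK1* turned from -0.50 to 0.24 and *NUSAP1* from -0.25 to 0.05. The score is built from the rule genes and goes with the mitosis genes over cells, so a smaller difference after this weighting is partly set by its construction, and nothing about a cause follows from it. In cells with all 12 genes the mitosis sum was 12379 CPM in the control and 9635 with TGF-β1, with 10 or 11 genes 7845 and 6662, with 7 to 9 genes 4351 and 4795, and with 6 genes 4493 and 3798. The median depth of the G2/M cells was also lower with TGF-β1, 61000 against 75608 UMIs, and its part in the lower levels was not tested.

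DNA replication genes were lower with TGF-β1 in 50 of 51 measured, 42 with an interval below 0 (28.9% of all genes), with a median of -0.60, and 5 were more than 2-fold lower (2.49% of all genes). *TYMS*, thymidylate synthase, was at 91.9 and 36.5 CPM, *TK1*, thymidine kinase, at 154 and 67.3, and *PCNA* at 222 and 125. *TIPIN*, of the replication fork, was at 46.8 and 48.1 CPM. Recombination repair genes had a median of -0.74, centriole genes -0.58, and nuclear envelope and chromatin genes -0.41. *HMGB2*, a chromatin protein of dividing cells, was at 216 and 95.7 CPM.

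The mitosis genes as a whole and the DNA replication genes, over those measured in both parts of the culture, had medians below 0 in G2/M cells and above 0 in the other cells. Over 42 mitosis genes the median was -0.34 in G2/M cells and 0.10 in the other cells, and 40 of them had a lower ratio in G2/M cells, 28 with an interval of the difference below 0. Over 15 replication genes the medians were -0.47 and 0.08, and the ratio was lower in G2/M cells for all 15. In the other cells 24 of the 42 and 9 of the 15 were above 0 and the rest below, so the medians there give no direction. Of the single lists, mitotic entry was below 0 in both, at -0.40 and -0.19, as were condensin and cohesin at -0.37 and -0.04 and the G1 cyclins and inhibitors at -0.22 and -0.27. Over all 7773 genes measured in both, the ratio was lower in G2/M cells for 59.8% and the interval of the difference was below 0 for 18.9%. The rule score goes with the mitosis genes over cells, so their values in G2/M cells depend on which cells passed in each library.

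*STMN1*, stathmin, a regulator of microtubules, differed most between the parts. It was at 577 CPM in control and 637 in TGF-β1 G2/M cells, and at 47.9 and 280 in the other cells. Its log2 ratio was thus 0.14 in G2/M cells and 2.55 in the other cells, a difference of -2.41 (-2.48 to -2.34). *KRT8* went from 112 to 2.13 CPM in G2/M cells, where 15 UMIs in 7 cells remained, and from 114 to 4.56 in the other cells, a difference of -1.07 (-1.82 to -0.33). Among 2762 genes with at least 50 CPM in both parts as a mean of the libraries, these 2 were past 2-fold.

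*TUBA1B*, an alpha tubulin, was at 1192 and 976 CPM in G2/M cells and at 358 and 516 in the other cells. *NME1*, a nucleoside diphosphate kinase, was at 434 and 440 in G2/M cells and at 107 and 201 in the other cells, and *CENPP*, a centromere protein, at 316 and 250 and at 53.4 and 79.3. These genes were named for their lower ratio of TGF-β1 over control in G2/M cells. A fall of G2/M over other cells with TGF-β1 therefore follows from the choice. For these genes the parts lay closer together with TGF-β1. *KRT8*, named in the same way, moved apart, with log2 ratios of G2/M over other cells of -0.03 and -1.10.

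On the opposite side, *SFRP1*, a secreted inhibitor of Wnt signaling, was at 70.6 and 136 CPM in G2/M cells and at 134 and 132 in the other cells, a difference of 0.96 (0.80 to 1.12). *CRABP2*, a retinoic acid binding protein, was at 19.5 and 125 in G2/M cells and 34.8 and 127 in the other cells. *BTG1*, an antiproliferative gene, was at 49.8 and 63.2 and at 94.9 and 72.4, *CH25H*, cholesterol 25-hydroxylase, at 51.3 and 79.5 and at 89.8 and 88.1, and *PLPP3*, a lipid phosphatase, at 79.6 and 77.4 and at 119 and 73.4. For these 5 genes G2/M cells were lower than the other cells in the control, with log2 ratios from -0.93 to -0.58, and near them with TGF-β1, from -0.20 to 0.08. That this ratio rose with TGF-β1 again follows from how the genes were named.

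**Figure D5:**
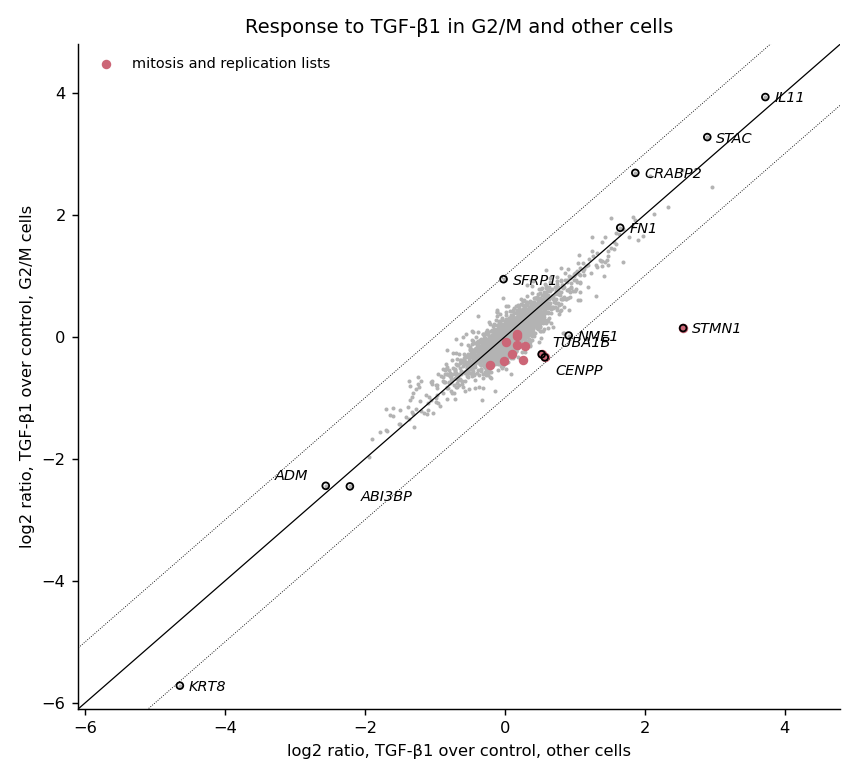
Log2 ratio of TGF-β1 over control in G2/M cells against that in the other cells for 2762 genes with a symbol and at least 50 CPM in both as a mean of the libraries, 1 library a condition, with genes of the mitosis and replication lists in red, the line of equal response and dotted lines at a 2-fold difference. *STMN1* at 0.14 and 2.55 lies far below the line, and *SFRP1* lies above it.

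The matrix and contractile response was present in G2/M cells. *FN1* was at 1751 CPM in control and 6043 in TGF-β1 G2/M cells, a log2 ratio of 1.79 (1.76 to 1.82) against 1.65 in the other cells. Matrix genes had a median of 0.69, with 6 of 20 more than 2-fold higher (2.28% of all genes), against 0.41 in the other cells, and collagen chains 0.39 against 0.22. *COL1A1*, *COL1A2* and *COL3A1* had ratios of 0.27, 0.38 and 0.54, against 0.18, 0.25 and 0.32 in the other cells, while *COL14A1* had -1.58 and -1.21, the 1 chain of 20 below 0 in G2/M cells. Contractile genes had medians of 0.23 and 0.30, with *ACTG2*, an enteric smooth muscle actin, at 342 and 910 CPM in G2/M cells and *TAGLN*, transgelin, at 3584 and 5783. *ACTA2* was at 3411 and 4573 CPM, 0.42 (0.40 to 0.45) against 0.39. The TGF-β response list had medians of 0.62 and 0.55 with 6 of 17 genes more than 2-fold higher in each (2.28% and 2.32% of all genes), and its feedback inhibitor *SMAD7* was at 32.4 and 72.0 CPM in G2/M cells.

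Among the highest ratios of TGF-β1 over control in G2/M cells, *FAM216B* was at 1.20 CPM on 8 UMIs in control and 60.6 on 427 in TGF-β1 G2/M cells, a log2 ratio of 5.66 (4.67 to 6.88) against 3.48 in the other cells. *IGFBP3* was at 5.40 and 110 CPM, 4.35 (3.87 to 4.88) against 4.90. *IL11*, a fibrogenic cytokine, was at 144 and 2192 CPM, 3.93 (3.84 to 4.03) against 3.73. *AREG* stood at 3.29 (2.91 to 3.70) against 3.29, but 65.0% of its 60 control UMIs were in 1 cell and without the highest cell of each library the value was 4.48, while with at least 4 genes in the rule it was 1.90. *TLL1*, *STAC*, *TOX*, *NRIP3*, *GARIN5B* and *CSRP2* had ratios from 2.85 to 3.76 in G2/M cells and from 2.33 to 3.26 in the other cells.

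Among the lowest, *KRT8* stood at -5.72 (-6.57 to -4.99) against -4.65 in the other cells. *PDE1A*, a phosphodiesterase, was at 23.8 and 3.41 CPM, *ADM*, the vasodilator peptide adrenomedullin, at 141 and 26.0, *ABI3BP*, a matrix protein, at 113 and 20.6, and *PSMB9*, a subunit of the immunoproteasome, at 41.5 and 8.52. *PPL* and *SVEP1* had ratios of -2.48 and -2.40 against -2.25 and -2.22 in the other cells. *DNAH12* had -2.28 against -0.98. The linker histone *H1-1*, at 21.3 and 4.69 CPM, had -2.18 (-2.78 to -1.63) in G2/M cells and was near absent from the other cells, at 0.260 and 0.235 CPM. Interferon and antigen presentation genes had a median of -0.82 with 14 of 14 below 0 and 13 with an interval below 0 (28.9% of all genes), against -1.01, and immediate early and heat shock genes -0.31 against -0.49, with *EGR1* at 186 and 66.9 CPM in G2/M cells. *CFD* was at 65.1 and 21.9 CPM, -1.57 (-1.85 to -1.30) against -2.67 in the other cells, and it moved to -3.19 with the rule after thinning. *PDGFRA*, a growth factor receptor of fibroblasts, was at 59.7 and 19.0 CPM, -1.65 (-1.94 to -1.36) against -1.60.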

How the data were processed

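Droplet-based single cell RNA sequencing (Chromium 3' chemistry) of 2 libraries, control and TGF-β1, was analysed. The deposited values are raw UMI counts, which Cell Ranger assigned to Ensembl genes of EquCab3.0 for each barcode. The submitters' processing notes name version 7.1.0 and the file headers 8.0.1. The deposited 4384 and 5124 barcodes had not been filtered by quality, and the study's split of the pools by mare and removal of doublets, both with Souporcell, were not repeated.

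Cells with at least 20000 UMIs, 3500 genes and under 4% mitochondrial UMIs were kept. UMIs were summed over G2/M and other cells in each library and scaled to UMIs per 1000000 (CPM), with no pseudocount. Genes needed a mean of 10 CPM over the sums compared, list genes 10 CPM in either sum, and no ratio was formed where both sums had 3 or fewer UMIs. Intervals of shares and ratios are exact binomial at 95%. Those of a difference of responses are normal approximations at 95% from the same counts. Both cover counting error only: UMIs of 1 cell, mares and repeated cultures are not in them. The kept G2/M cells held 6669464 and 7043299 UMIs. With 1 library a condition no test was made. Of 21426 genes 5196 had no symbol. The 2 libraries shared 6 barcodes, none of them of a G2/M cell and a kept cell of the other library.

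The cells, gene lists and settings were chosen with earlier results of these data known. Named genes are the 12 rule genes, the 12 highest and lowest of G2/M over other cells in both libraries, the 10 highest and lowest of TGF-β1 over control in G2/M cells, the 5 largest differences of response in each direction, up to 4 at each end of a list, and 6 markers of other subsets, beside the markers of cell types. *H2BC20*, *KIF11* and the genes without a symbol were named after their values were seen. The alternatives were other limits of score, genes, UMIs and mitochondrial share, the rule after thinning, removal of cells above the 98th percentile of UMIs, other scaling, CPM and fold limits, weighting by score, and, chosen after the data were seen, the rule without *NUSAP1* and each gene without its highest cell. Ratios were checked on simulated data. Python 3.11.15, numpy 2.4.6, scipy 1.17.1, pandas 2.3.3 and matplotlib 3.10.9 were used.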

Additional observations from a re-analysis of the deposited data

Results flagged for a closer look

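The medians of the response to TGF-β1 lay below 0 in G2/M cells and above 0 in the other cells for several lists, over genes measured in both, and the first values given are for lists of at least 5 such genes whose median interval bounds also lay on either side of 0. The medians of the log2 ratio were -0.34 in G2/M cells and 0.10 in the other cells for the mitosis genes outside the rule, -0.38 and 0.18 for its spindle genes, and -0.34 and 0.29 for its kinetochore and checkpoint genes. They were -0.41 and 0.055 for nuclear envelope and chromatin genes and -0.47 and 0.082 for DNA replication genes. Further lists lay the same way without meeting these limits, at -0.09 and 0.11 for 10 genes of the anaphase-promoting complex, -0.48 and 0.0053 for 4 centriole genes, -0.23 and 0.37 for 2 genes of recombination repair and -0.54 and 1.27 for 1 gene of the passenger complex and cytokinesis. In the other cells the members went both ways, with 24 above and 18 below 0 for the mitosis genes, 8 and 6 for nuclear envelope and chromatin and 9 and 6 for DNA replication, so these medians near 0 give no direction there. Spindle genes were above 0 in 6 of 7 and kinetochore and checkpoint genes in 5 of 7. Over all genes in the other cells 45% had an interval above 0 and 41.4% below. The G2/M cells were chosen on a score that goes with the mitosis genes over cells. Their median score was 1826 in the control and 879 with TGF-β1, so the G2/M medians of these genes depend on which cells passed. With the same shares of 4 score bins the median over all 109 measured mitosis genes was -0.24 in place of -0.64. The difference between the parts was not tested, since each condition was 1 library.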

How the results depend on the processing

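Where an alternative changed the cells counted, the ratios of median UMIs stayed above 1, and where the medians of the mitosis genes outside the rule were recomputed they kept their direction. Over the 16 alternatives 99 of 125 values of these, the shares and the counts past 2-fold stayed within the interval or within 1.5 times the count first given. With at least 4 genes in the rule, the shares of G2/M cells were 3.78% in the control and 3.90% with TGF-β1, the opposite order to that first given, the medians of the mitosis genes over other cells 3.32 and 2.08, and 137 genes were past 2-fold with TGF-β1. With at least 8 genes the TGF-β1 share was 1.62% and the TGF-β1 median 3.27. After thinning the shares were 1.76% and 1.40% and the medians 4.29 and 3.27. Removal of cells above the 98th percentile of UMIs gave a TGF-β1 median of 3.27, the rule without *NUSAP1* a TGF-β1 share of 1.68%, and leaving out the highest cell of each gene a TGF-β1 median of 2.92. A minimum of 1 CPM gave 947, 559 and 1165 genes past 2-fold in the control, the TGF-β1 library and TGF-β1 over control in G2/M cells, a minimum of 50 CPM 82, 28 and 130, with medians of the mitosis genes of 3.31 and 1.72, and a limit of 1.5-fold 1017, 460 and 1228. Weighting to the same shares of 4 score bins gave a median of the mitosis genes for TGF-β1 over control of -0.24. The higher counts at 1 CPM and 1.5-fold and the lower at 50 CPM follow from the wider and narrower limits, and the cause of the other shifts was not tested. Of the other list medians and counts, 133 values moved and 818 did not. Medians near 0 of G2/M over other cells changed sign in 23 values of 8 lists and comparisons, each with a size of at most 0.092 as first given and 0.085 after, among them matrix with TGF-β1 (0.01 to -0.06), the TGF-β response in the control (0.07 to -0.06) and interferon with TGF-β1 (-0.09 to 0.08). Values of named genes stayed within their interval 2029 times and moved beyond it 388 times. They changed sign in 68 values of 22 genes, 5 of them from beyond 0.3: *H2AC19* in the control (-0.80 to 0.07), *MIP-2BETA* with TGF-β1 (-0.78 to 0.20) and *RRAD* for TGF-β1 over control (0.37 to -0.31) with at least 4 genes, *PLK1* for TGF-β1 over control (-0.50 to 0.24) with score bins, and *AREG* in the control (0.34 to -1.17) without its highest cell. No paired analysis was possible because each group was 1 library and the study's split of the pools by mare was not used here. Depth limits the values of genes with few UMIs in G2/M cells, and shares of 89 and 97 cells have wide intervals.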
